A study of Rattus norvegicus with 12 samples.

Results

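Spp1, the gene of osteopontin, was examined together with 6 genes of connective tissue matrix and the growth factor gene Igf2 in motor cortex of rats that modelled Parkinson's disease (PD) through a 6-OHDA lesion, of rats without it, and of stimulated rats of both kinds. The 8 genes are Spp1 (ENSRNOG00000043451), Col1a1 (ENSRNOG00000003897), Col1a2 (ENSRNOG00000011292), Col3a1 (ENSRNOG00000003357), Dcn (ENSRNOG00000004554), Lum (ENSRNOG00000004610), Igf2 (ENSRNOG00000020369) and Fn1 (ENSRNOG00000014288). All 8 were found among the 16534 features of the deposited table, and all 8 passed the minimum for testing, a mean level of 0.5 CPM (counts scaled by the authors to a common library total), as did 14985 features in all. Spp1 was chosen by its low CPM in PD rats relative to control rats, and the other 7 were named for their function with results of these data known. Symbols are those given with the list of identifiers, since no table used here pairs Ensembl identifiers with symbols.

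Messenger RNA was sequenced in 4 groups of 3 rats each. Stimulated PD rats carried the 6-OHDA lesion (a toxin that enters catecholamine neurons) and a graphene array over primary motor cortex, which delivered 130 Hz for 1 hour a day during 2 weeks. PD rats had the lesion without stimulation, stimulated control rats were stimulated without the lesion, and control rats had neither. The labels do not say whether stimulated controls had that same schedule, and strain, sex, age, hemisphere, a sham operation or sham array, and the treatment of the meninges at dissection are not stated there either. Libraries held 45862054 to 52830363 counted reads in stimulated PD, 47165351 to 62082830 in PD, 56283725 to 58122292 in stimulated control and 42905441 to 55682422 in control rats. Markers of meningeal cells, vessels, choroid plexus, microglia, neurons and glia could not be matched to identifiers, so the labelled tissue was not checked against them and their part in the values below was not tested.

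Fibroblasts of the meninges and of the perivascular space make most of the fibrillar collagen found in and around the healthy brain, whereas the matrix between neurons is rich in hyaluronan and proteoglycans and poor in fibrils. Fibrils of type I and type III collagen are bound by the leucine-rich proteoglycans decorin and lumican, and cells grip the surrounding fibronectin through integrins. Osteopontin is a secreted, phosphorylated glycoprotein that also binds integrins, and CD44; in the brain it is known from activated microglia and macrophages after injury and from some neurons.

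Promoter sequence is shown for Spp1 and for Col1a2. Spp1 had the lowest correlations with the other members between rats, a difference that was not tested. Col1a2 is a gene of those that varied together. The 250 bases before the transcript start are given 5′ to 3′ from the RefSeq table of build GRCr8, at chr14:5619805-5620054 on the minus strand for Spp1 and chr4:33518307-33518556 on the plus strand for Col1a2. Capitals mark matches to TATAAA and to CCAAT, read on either strand, so that ATTGG is a CCAAT match on the opposite strand.
Spp1: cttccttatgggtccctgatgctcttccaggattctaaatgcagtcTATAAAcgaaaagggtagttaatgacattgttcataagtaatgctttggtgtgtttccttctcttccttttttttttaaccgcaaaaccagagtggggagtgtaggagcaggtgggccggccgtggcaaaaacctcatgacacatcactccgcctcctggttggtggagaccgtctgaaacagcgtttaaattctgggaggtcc
Col1a2: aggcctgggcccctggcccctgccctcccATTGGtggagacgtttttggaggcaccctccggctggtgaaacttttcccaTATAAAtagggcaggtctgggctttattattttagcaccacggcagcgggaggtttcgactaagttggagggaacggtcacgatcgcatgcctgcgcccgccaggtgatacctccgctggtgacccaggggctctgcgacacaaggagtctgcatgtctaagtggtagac
The windows of 300 bases in this table (250 before and 50 after the start) were searched on both strands for TATAAA, for the CCAAT box, for GGGCGG (a GC box), for TGANTCA (an AP-1 element), for CANNTG (an E-box) and for CAGACA (a SMAD element), and none of the matches printed overlap. The Spp1 window held 1 TATAAA, 204 bases before the start, and the Col1a2 window held 1 TATAAA at 170 bases and 1 CCAAT at 221 bases before it. Among all 33469 windows 14.2% held a TATAAA match, 37.5% held CCAAT and 33.1% held GGGCGG, while 7.33% held TGANTCA, 72.1% held CANNTG and 21.1% held CAGACA. Each of these windows also held 1 CANNTG match, and neither held the other 3 motifs. Windows were listed for 4 of the 8 genes. The Lum window held 1 CCAAT and 1 CANNTG. Each of the 2 Igf2 windows held 1 GGGCGG, and 1 of them also held 1 CANNTG and 1 CAGACA.

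Spp1 was near the floor of detection in every PD rat. It stood at 2.51, 140.3 and 5.23 CPM in stimulated PD rats 1, 2 and 3, and at 0.170, 0.130 and 0.290 CPM in PD rats 1, 2 and 3. It stood at 18.6, 18.2 and 65.7 CPM in stimulated controls and at 18.9, 9.21 and 21.01 CPM in controls. The PD values rest on 8, 7 and 18 reads (exact Poisson 95% intervals 3.45 to 15.8, 2.81 to 14.4 and 10.7 to 28.4, counting error only). Every other library held at least 115 Spp1 reads. Stimulated PD rat 2 had the highest level of all 12 libraries, from 7410 reads, whereas stimulated PD rats 1 and 3 lay between the PD and the control range. In bulk tissue fewer cells that make a transcript and less of it per cell cannot be told apart.

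**Figure D1:**
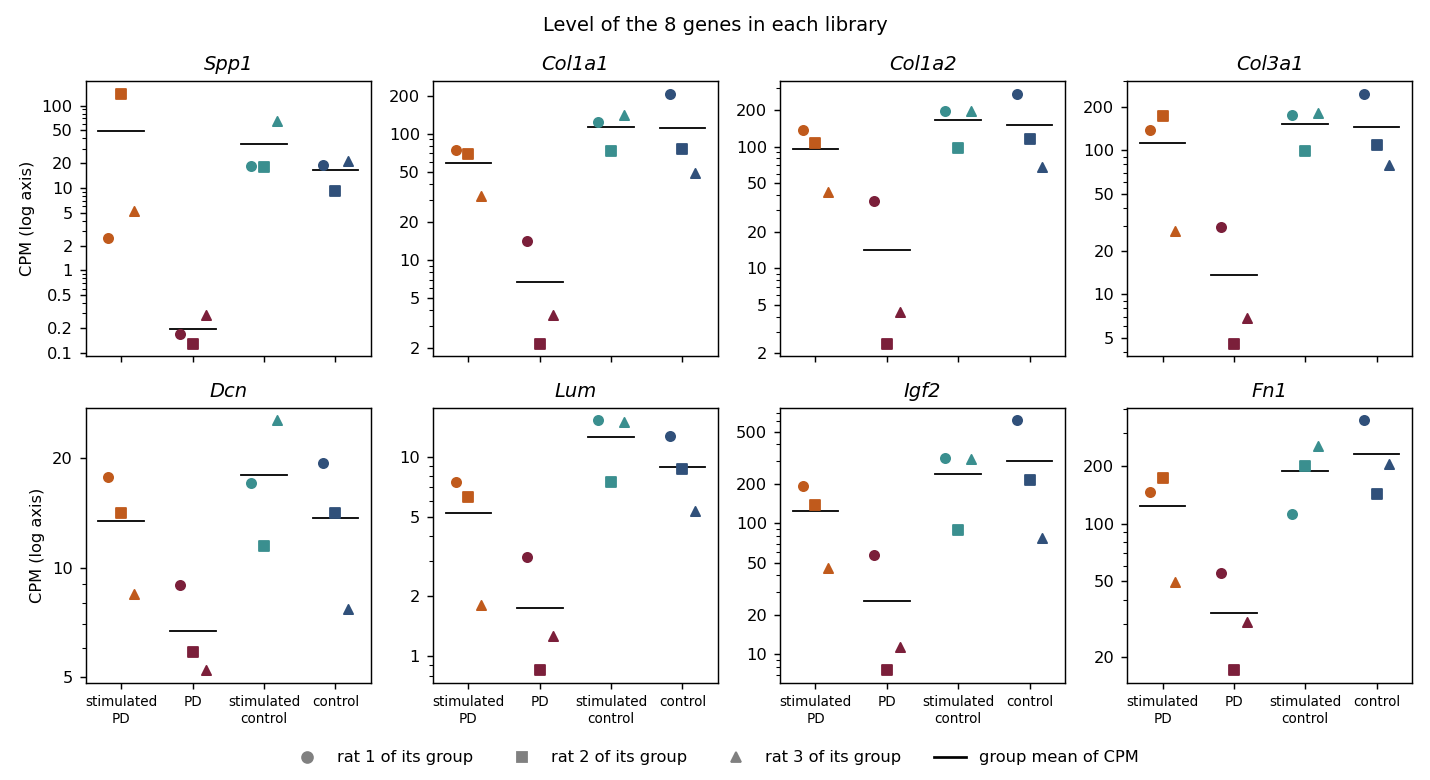
Level of each of the 8 genes (CPM, log axis) in the 12 libraries, by group; symbols number the rats within a group and the line is the group mean. Every PD library of Spp1 lies below 0.3 CPM, and PD rat 1 is the highest PD library of the other 7 genes.

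The type I collagen genes encode the chains of a fibril-forming molecule. Col1a1 stood at 74.8, 69.3 and 31.9 CPM in stimulated PD rats and at 14.1, 2.18 and 3.70 CPM in PD rats, against 123, 72.6 and 141 CPM in stimulated controls and 207, 76.2 and 48.8 CPM in controls. Col1a2 stood at 137, 107 and 42.4 CPM in stimulated PD rats and at 35.6, 2.41 and 4.37 CPM in PD rats, against 198, 97.7 and 197 CPM in stimulated controls and 273, 115 and 67.9 CPM in controls. For both chains all PD libraries were below all others, and PD rat 1 was closer to the other groups than PD rats 2 and 3. The ratio of Col1a2 to Col1a1 CPM, which is not corrected for length, stayed between 1.10 and 2.53 (median 1.40) while Col1a1 itself ranged 94.96-fold over the 12 libraries. PD rat 1 gave the highest ratio, and PD rat 2 the lowest.

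Col3a1 encodes the chain of type III collagen, a fibril component of soft tissues and vessel walls. It stood at 138, 173 and 27.6 CPM in stimulated PD rats and at 29.2, 4.55 and 6.85 CPM in PD rats, against 174, 98.6 and 181 CPM in stimulated controls and 247, 108 and 78.8 CPM in controls. Stimulated PD rat 3 lay just below PD rat 1, so these groups overlapped. Fn1 encodes fibronectin, the integrin ligand on which collagen fibrils are laid down. It stood at 146, 174 and 49.6 CPM in stimulated PD rats and at 55.02, 17.1 and 30.6 CPM in PD rats, against 113, 200.1 and 255 CPM in stimulated controls and 348, 144 and 205 CPM in controls. Here too stimulated PD rat 3 fell within the PD range.

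Dcn (decorin) and Lum (lumican) encode leucine-rich proteoglycans that set the spacing of collagen fibrils. Dcn stood at 17.7, 14.1 and 8.45 CPM in stimulated PD rats and at 8.95, 5.85 and 5.22 CPM in PD rats, against 17.1, 11.5 and 25.4 CPM in stimulated controls and 19.4, 14.1 and 7.69 CPM in controls. It had the smallest difference of the 8 genes between PD and control rats, and control rat 3 lay below PD rat 1. Lum stood at 7.501, 6.28 and 1.81 CPM in stimulated PD rats and at 3.14, 0.851 and 1.26 CPM in PD rats, against 15.2, 7.43 and 14.9 CPM in stimulated controls and 12.7, 8.64 and 5.34 CPM in controls. All PD values of Lum were below all control values, with stimulated PD rat 3 between PD rats 1 and 3.

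Igf2 encodes insulin-like growth factor II, which in adult rodent brain is made mainly by leptomeninges, vessels and choroid plexus. It stood at 192, 137 and 45.6 CPM in stimulated PD rats and at 57.6, 7.55 and 11.3 CPM in PD rats, against 315, 89.1 and 312 CPM in stimulated controls and 613, 215 and 76.6 CPM in controls. Its controls alone spanned 7.996-fold. The ratio of Igf2 to Col1a1 CPM stayed between 1.23 and 4.10, a 3.34-fold range, whereas that of Col1a1 to Spp1 ran from 0.494 in stimulated PD rat 2 to 82.9 in PD rat 1, a 168-fold range. The value of 82.9 rests on 8 Spp1 reads, near the floor of detection. Outside the PD rats the highest ratio of Col1a1 to Spp1 was 29.8, in stimulated PD rat 1.

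The contrast of PD with control rats is the one in which Spp1 was chosen, and the other 7 genes were named with results known. The values of this contrast are therefore a description. Their signs, the overlaps and the comparisons with all features are not independent of that choice. All 8 estimates were lower in PD rats. In log2(CPM + 0.5), a scale on which changes of low genes come out too small, the difference was -4.52 for Spp1, -4.07 for Col1a1, -4.01 for Col1a2, -3.64 for Col3a1, -3.61 for Igf2, -2.80 for Fn1, -2.12 for Lum and -0.93 for Dcn. For 7 of the 8, all but Dcn, every PD library lay below every control library, where 23.3% of all tested features did so. The median difference was -3.63 over the 8 genes and -0.11 over all features. The median over all features became 0.03 when rescaled by TMM or by median-of-ratios factors and 0.05 by quantile normalization, and the 8 differences were negative in each of the 24 settings and library omissions computed.

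The lesion was also compared among stimulated rats, in libraries that played no part in the choice of Spp1, although the spread is pooled over all 12. The other 7 genes were named with results of these data known, so their signs are not independent of that choice. All 8 genes had a lower mean log2 level in stimulated PD than in stimulated control rats, and 0 of 8 passed the test (limma, all 12 libraries fitted, Benjamini-Hochberg over 14985 features, adjusted p under 0.05), where 1.45% of all features did. The differences ranged from -1.31 to -0.40 with a median of -0.91, against -0.12 over all features. Lum had the largest difference, -1.31 ± 0.51 (SE; n = 3 against 3, limma adjusted p = 0.133), and Spp1 differed by -1.09 ± 1.08 (limma adjusted p = 0.546). Lum was the 1 gene with an unadjusted p under 0.05, where 26.3% of all features had one. All 8 overlapped between these groups, where 41.4% of features did not. The share over all features was unsteady: limma called 217 features, and 2 to 2256 when single libraries were left out, 12 with TMM factors and 2163 with only the compared groups fitted. edgeR called 0 of 8, where it called 0.1% of all features. DESeq2, which gave no adjusted p for Spp1 in any comparison, called 0 of the other 7, where it called 13.5% of all features. Direction rested on single libraries or on the tool for a pair of genes. Without stimulated PD rat 3 the Col3a1 difference was 0.08. With all libraries the Spp1 difference was 0.61 by edgeR and 0.60 by DESeq2.

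Among lesioned rats, stimulated PD rats were compared with PD rats. The labels do not say whether unstimulated rats carried an array. Stimulation and array placement therefore cannot be told apart in this comparison. All 8 genes had a higher mean log2 level in stimulated PD rats, by 4.28 ± 1.08 for Spp1, 3.34 ± 0.63 for Col1a1, 3.43 ± 0.81 for Col1a2, 3.09 ± 0.74 for Col3a1, 2.60 ± 0.88 for Igf2, 1.80 ± 0.53 for Fn1, 1.29 ± 0.51 for Lum and 0.93 ± 0.38 for Dcn (limma SE with the spread pooled over all 12 libraries, n = 3 against 3). The spread of Spp1 was unequal. Its SD of log2 levels was 2.97 in stimulated PD and 0.17 in PD rats, where its values lay below the added 0.5 CPM. By limma 0 of 8 passed, with adjusted p from 0.149 to 0.265, as 0.0% of all features did. All 8 had an unadjusted p under 0.05, where 17.4% of all features had one. The PD libraries are those in which Spp1 was chosen for its low level, and the other genes were named with results known. The signs and sizes of the differences, the count of unadjusted p and the comparisons with all features are therefore not independent of that choice. The median of the 8 was 2.84 against 0.08 over all features, and every stimulated PD library lay above every PD library for Spp1, Col1a1 and Col1a2, where 9.98% of features did so.

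Calls in this comparison turned on single rats and on the tool. Without PD rat 1, the PD rat with the highest levels of the genes other than Spp1, 7 of 8 passed by limma, all but Dcn, where 19.6% of all features passed. The differences were then 4.25 for Spp1 (limma adjusted p = 0.0420), 4.04 for Col1a1 (limma adjusted p = 0.00898) and 4.51 for Col1a2 (limma adjusted p = 0.00898). For Spp1 the unadjusted limma p was larger than with all libraries, 0.00717 against 0.00200. Its limma adjusted p fell from 0.184 because more of all features passed. Without stimulated PD rat 3, the lowest of its group in the other 7 genes, Col1a1, Col1a2, Col3a1 and Fn1 passed, as did 2.18% of all features. DESeq2 with all libraries called the same 4 genes, with adjusted p = 0.00569 for Col1a1 and 0.0493 for Col1a2, and 6.05% of all features. edgeR called 0 of 8 and 0.0% of all features.

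**Figure D2:**
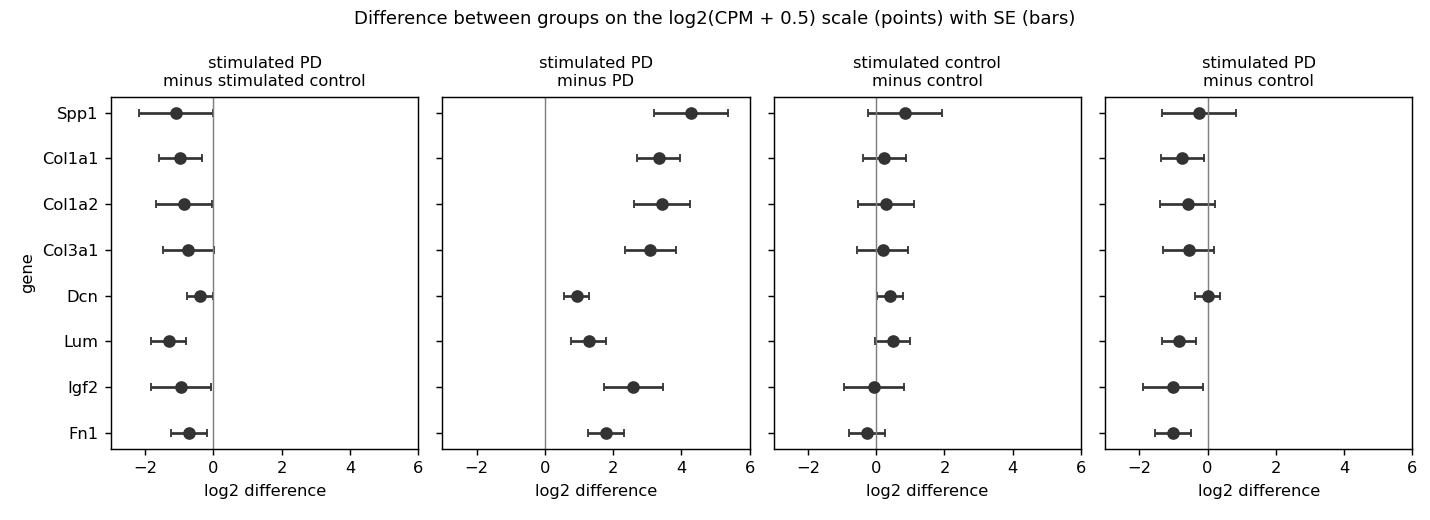
Difference between groups for each gene (log2(CPM + 0.5), points) with its standard error (bars, spread pooled over all 12 libraries) in the 4 tested comparisons, 3 rats a group. Estimates for stimulated PD minus PD lie between 0.93 and 4.28, and those of the other comparisons between -1.31 and 0.85.

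Without the lesion, stimulated control rats were compared with control rats, with the same limit on array placement. The differences were small against the spread, from -0.28 ± 0.53 for Fn1 to 0.85 ± 1.08 for Spp1, with a median of 0.26 against 0.03 over all features. By limma and edgeR 0 of 8 passed and by DESeq2 0 of 7, as 0.0% of features did by each tool, and 0 of 8 had an unadjusted p under 0.05 by limma, where 1.79% of features had one. The 2 groups overlapped for all 8 genes, where 8.88% of features did not overlap. Single rats turned the direction: without control rat 3 the differences were -0.22 for Col1a1, -0.18 for Col1a2 and -0.16 for Col3a1, and without control rat 1 they were 0.68 for Igf2 and 0.06 for Fn1.

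Stimulated PD rats were then set against control rats. Estimates were lower for 7 of 8, from -1.02 ± 0.88 for Igf2 and -1.002 ± 0.53 for Fn1 to -0.25 ± 1.08 for Spp1, and 0.00 ± 0.38 for Dcn. By limma 0 of 8 passed (limma adjusted p from 0.290 to 0.999), where 0.0334% of features did. edgeR called 0 of 8 and the same share of features, and DESeq2 called 0 of 7 and 7.23% of features. An unadjusted p under 0.05 was reached by 0 of 8 and by 20.9% of features, and all 8 overlapped between the groups, where 41.4% of features did not. The control libraries are also those of the contrast in which Spp1 was chosen, and the other 7 genes were named with results known. For Spp1 the sign depended on the estimate: the difference was 1.61 by edgeR and DESeq2, 0.83 without stimulated PD rat 1 and 0.37 without stimulated PD rat 3. Leaving out stimulated PD rat 3 also gave 0.27 for Col3a1.

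Whether the difference between stimulated and unstimulated rats changed with the lesion was tested as an interaction, with the same limit on array placement. By limma 0 of 8 passed (adjusted p = 0.834 for each), as 0.0% of all features did. edgeR called 0 of 8 and 0.0% of features, and DESeq2 called 0 of 7 and 0.2% of features. The estimates were positive for all 8, from 0.53 ± 0.53 for Dcn to 3.43 ± 1.53 for Spp1 (SE), and 5 of 8 had an unadjusted p under 0.05, where 4.13% of features had one. This contrast holds the PD and control libraries in which Spp1 was chosen, and the other 7 genes were named with results known. The signs of the estimates and the count of unadjusted p are therefore not independent of that choice.

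Rats of a group differed more in these genes than in most others. The pooled SD between rats of a group was 1.61 log2 units for Spp1, 1.30 for Igf2, 1.21 for Col1a2, 1.10 for Col3a1, 0.93 for Col1a1, 0.78 for Fn1, 0.73 for Lum and 0.54 for Dcn, against a median of 0.23 over all tested features. The value of Spp1 rested on stimulated PD rat 2, without which it was 0.70. Among the 1000 features closest to it in level, Dcn varied more than 94.5%, Lum more than 95.5% and each of the other 6 genes more than at least 99.6%. The share of a library's reads taken by the 8 genes together was 0.0213% to 0.0821% in stimulated PD, 0.00406% to 0.0204% in PD, 0.0595% to 0.119% in stimulated control and 0.0511% to 0.174% in control rats.

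To ask whether the genes vary together between rats, each log2 level was taken as its deviation from the mean of its group, which removes differences between groups. The 7 genes other than Spp1 had deviations of 1 sign in 9 of the 12 libraries. In stimulated PD rats 1 and 2, PD rat 1, stimulated control rat 3 and control rat 1 all 7 were above the mean of their group. In stimulated PD rat 3, PD rats 2 and 3 and control rat 3 all 7 were below it. The other 3 libraries were mixed, with 5 of 7 above in stimulated control rat 1, 6 of 7 below in stimulated control rat 2 and 5 of 7 below in control rat 2. PD rat 1 deviated most upward, with a median over the 7 genes of 1.41 log2 units, and stimulated PD rat 3 most downward, with -1.12.

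Over the 12 libraries Pearson's r between pairs of the 7 genes other than Spp1 was 0.59 to 0.98, with a median of 0.90, and 17 of these 21 pairs had an adjusted p under 0.05 (exact permutation test of the deviations within groups, 1296 orders, two-sided, Benjamini-Hochberg over 28 pairs). Col1a1 and Col1a2 had r = 0.98 and Spearman's rho = 0.97 (exact permutation p = 0.00154 for each, adjusted p = 0.00617 and 0.00720). Col3a1 and Lum had r = 0.96 and rho = 0.94 (exact permutation p = 0.00309 and 0.00463, adjusted p = 0.00617 and 0.00864). Lum and Igf2 had r = 0.95 and rho = 0.95 (exact permutation p = 0.000772 for each, the smallest these orders allow, adjusted p = 0.00617 and 0.00720). The 4 pairs that did not pass were those of Fn1 with Col1a2, Dcn, Lum and Igf2, with r from 0.59 to 0.72 (exact permutation, adjusted p from 0.0552 to 0.113). Without the 2 libraries farthest from the median of the first gene, r over the 21 pairs was 0.53 to 0.98, with a median of 0.90. Without the 2 farthest on the second gene, it was 0.48 for Igf2 and Fn1 to 0.98 for Col1a1 and Col1a2. A library effect shared by many genes would enter these values, and the median r of each of the 7 genes with the 14977 other features tested was 0.15 to 0.20, with 5.82% to 10.8% of them above 0.7.

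Spp1 did not pass with any of the 7. Its r was 0.43 with Fn1, 0.33 with Col3a1, 0.20 with Lum, 0.16 with Col1a1, 0.13 with Dcn, 0.10 with Igf2 and 0.09 with Col1a2, and rho was 0.08 to 0.51 (exact permutation p from 0.411 to 0.833 for r, adjusted p from 0.523 to 0.833; adjusted p from 0.199 to 0.847 for rho). Spp1 in PD rats, from 8, 7 and 18 reads, lay below the 0.5 CPM added before taking logs. Its deviations there were -0.05, -0.14 and 0.19, where the other 7 genes had medians of 1.41, -1.03 and -0.38. PD rats could therefore show little covariation with Spp1, whether present or not. The r of Spp1 depended most on the stimulated PD rats. Stimulated PD rat 2 was 3.39 log2 units above its group's mean in Spp1 and a median of 0.36 above it in the other 7 genes, and stimulated PD rat 1 deviated by -2.16 in Spp1 and by a median of 0.66 in the other 7. The median r of Spp1 with the 7 genes was 0.16, and leaving out stimulated PD rat 1, 2 or 3 gave 0.45, -0.01 and -0.03. It was 0.63 with the title number as a replicate block and 0.76 without subtraction of group means. Without the 2 libraries farthest from the median of Spp1, its r with the 7 genes was 0.25 to 0.66. Without the 2 farthest from the median of the other gene of each pair, it was -0.04 with Lum to 0.37 with Fn1. Whether r was lower for pairs with Spp1 than for the other pairs was not tested. With the other features tested Spp1 had a median r of 0.11, and 3.18% of them were above 0.7.

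**Figure D3:**
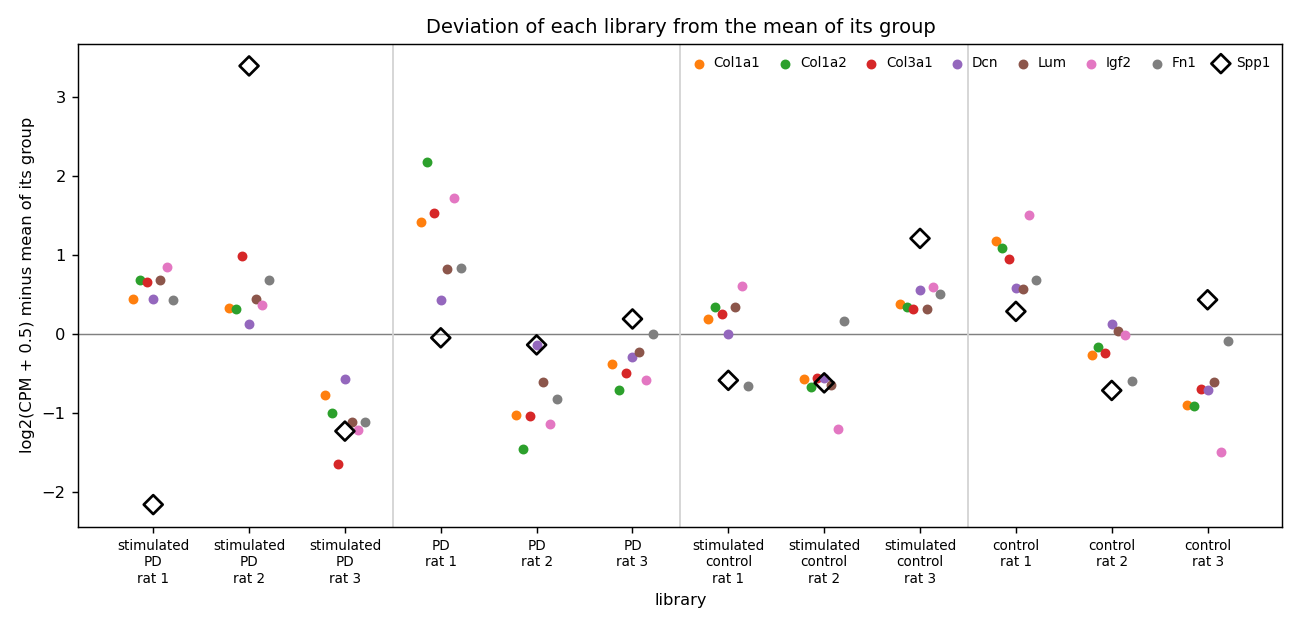
Deviation of each library from the mean of its group (log2(CPM + 0.5)) for Spp1 (open diamonds) and the other 7 genes (dots). The median of the dots runs from -1.12 in stimulated PD rat 3 to 1.41 in PD rat 1, where single genes lie between 0.43 and 2.17, and Spp1 departs from them by the most in stimulated PD rats 1 and 2.

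**Figure D4:**
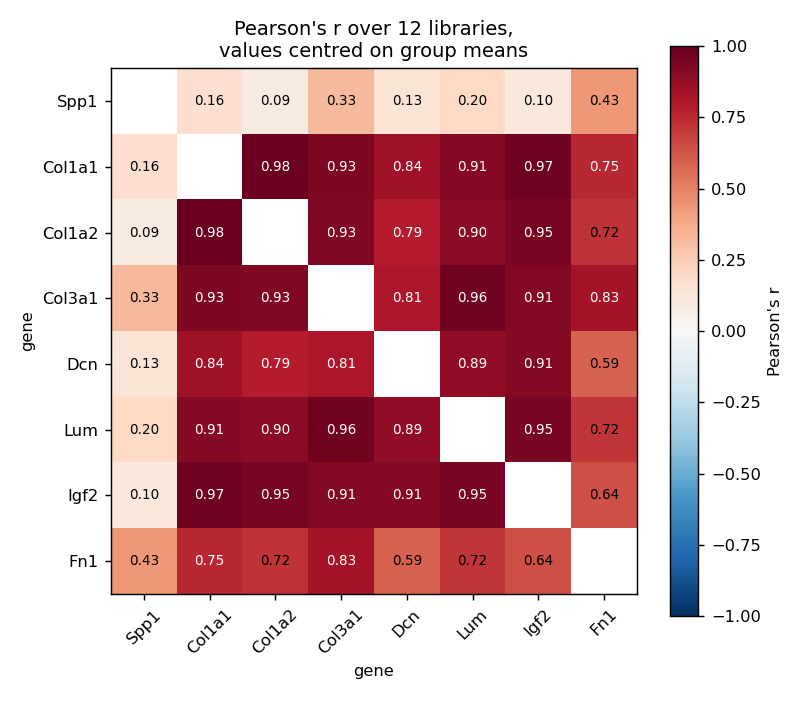
Pearson's r between the 8 genes over 12 libraries, after subtraction of group means. Pairs of the 7 genes other than Spp1 lie at 0.59 to 0.98 and pairs with Spp1 at 0.09 to 0.43.

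Features most like the genes were ranked by r of the deviations over the 12 libraries. For Spp1 the nearest were ENSRNOG00000053026 (r = 0.96) and ENSRNOG00000047456 (r = 0.95), and 13 features had an r over 0.9. For the mean of the 7 other standardised genes they were ENSRNOG00000031709 and ENSRNOG00000064984 (r = 0.98 each). The 10 nearest to Spp1 and the 10 nearest to that mean shared 0 features. Their symbols are not given in the files, and these r are a description of 12 libraries, picked as the highest of 14977.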

How the data were processed

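Motor cortex messenger RNA from 12 rats (4 groups of 3, assigned by title) was read from a table of CPM deposited by the authors. The library kit was stranded and selected mRNA, per the labels' protocols. The submitters' processing notes name Trim Galore, STAR and featureCounts and the build mRatBN7.2. The annotation release and the counting strand were not given in the sources used here. All 12 columns were matched by sample description and 0 were left over. Dividing by each column's smallest value gave whole reads for 100% of values (tolerance 0.001 read). The table thus holds no feature that lacks reads in some library. Shares of all features refer to features detected in every library. Of 16534 identifiers 0 could be matched to symbols, so the 9 gene lists and 11 marker lists fixed for the tissue, and gene length, were not used.

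The main test was limma 3.58.1 (R 4.3.3) on log2(CPM + 0.5) for features averaging 0.5 CPM or more, 1 coefficient per group, trended prior variance, two-sided, Benjamini-Hochberg over all features tested. edgeR 4.0.16 and DESeq2 1.42.0 used the recovered counts, which the authors had deposited as CPM. The scripts were tested on simulated data. The title number was not used for pairing: same-numbered libraries of different groups correlated in their deviations at -0.46 to 0.36, over 0.1 in 3 of 18 pairs. Titles number the rats, so libraries are separate animals, and rats are named here by title. The sample descriptions number the PD rats and stimulated PD rat 3 differently from the titles. Pairing by the description number was not examined. Members, lists and tests were chosen with earlier results of these data known. All 8 genes are named, and likeness was ranked by r; only 2 identifiers without a symbol are printed for each ranking.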

Additional observations from a re-analysis of the deposited data

How the results depend on the processing

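Each of 32 log2 differences (8 genes, 4 tested comparisons) was recomputed under 23 alternatives, which gave 736 values. Of these 700 kept their direction and their side of the threshold, 15 newly passed, all for stimulated PD against PD rats, and 21 changed sign without passing. The DESeq2 values of Spp1, which had no adjusted p, were counted by direction only. The number of genes passing in that comparison was 0 as reported, 4 by DESeq2 (907 of 14985 features) and 0 to 7 when single libraries were left out (0 to 2943 features, with 327 without stimulated PD rat 3 and 2943 without PD rat 1). In the other comparisons and the interaction it was 0 under every alternative run. Over all features the counts there ran from 2 to 2256 for stimulated PD against stimulated control rats (217 as reported), from 2 to 2859 against control rats (5 as reported), and from 0 to 30 for the interaction (0 as reported). The pooled SD of Spp1 between rats, recomputed after seeing the data, was 0.70 without stimulated PD rat 2, against 1.61 with it, and the SDs of the other genes stayed within 1.5 times. The interaction could not be fitted with only the compared groups.

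The sign changed for Spp1 in stimulated PD against stimulated control rats (0.61 by edgeR, 0.60 by DESeq2) and against controls (1.61 by both, and -1.94 to 0.83 among library omissions), for Dcn against controls (-0.0023 with a pseudocount of 2 CPM, and -0.35 to 0.29 among omissions) and for Col3a1 among omissions (-1.23 to 0.082 against stimulated controls, -1.04 to 0.27 against controls). In stimulated control against control rats it changed for Col1a1 (-0.011 by edgeR, -0.0047 by DESeq2, and -0.22 to 0.82 among omissions). Omissions there gave -0.18 to 0.82 for Col1a2, -0.16 to 0.66 for Col3a1, -0.81 to 0.68 for Igf2 and -0.57 to 0.064 for Fn1. The cause was not tested.

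The median r over 28 pairs was 0.82, 0.91 without subtraction of group means and 0.75 to 0.86 among library omissions. That of Spp1 with the 7 genes was 0.16, and 0.76 without subtraction, where the low PD levels of all genes enter, and -0.025 to 0.45 among omissions. Over the 21 other pairs, computed after seeing the data, it was 0.90, 0.94 without subtraction, 0.91 with a pseudocount of 0.1 CPM, 0.91 after quantile normalization, 0.89 as rho and 0.88 to 0.91 among omissions. With the title number as a replicate block these medians were 0.79, 0.63 and 0.82. The block left the calls of genes at 0 in every comparison, and 2 of 12 libraries correlated best with their own number in another group. Low counts limit Spp1 in PD rats.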
